A study of Homo sapiens with 24 samples.

Results

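The BCL2 family genes BCL2, MCL1, BCL2L1, BCL2A1, BCL2L11, BBC3, PMAIP1, BAX, BAK1 and BID were followed through 2 human diffuse large B cell lymphoma lines treated with trabectedin. The members were the probes whose only gene symbol in the array's annotation was 1 of these 10 genes, which gave 22 of 47231 probes on the array and 10 of 20046 genes with a probe of their own. Of these established lines, U2932 is generally counted as activated B cell-like and OCI-Ly7 as germinal centre B cell-like. Each line was cultured with trabectedin, a DNA minor groove-binding drug, or with the solvent DMSO alone, for 8 h or 24 h. The 8 groups, U2932 and OCI-Ly7 each with DMSO at 8 h, trabectedin at 8 h, DMSO at 24 h and trabectedin at 24 h, held 3 arrays each. The groups shared no further agent or allele in the labels, and the drug dose is not given in the sources used here. Each subtype was represented by 1 line.

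Proteins of the BCL2 family decide whether the outer membrane of the mitochondrion is opened, the step that releases cytochrome c and starts caspase activation. Anti-apoptotic members hold the pore-forming effectors BAX and BAK in check, and BH3-only members are induced or activated by stress and either block the guardians or activate the effectors directly. B cell lymphomas are known for high BCL2, MCL1 or BCL-XL, and MCL1 and NOXA are known as short-lived products whose genes respond quickly to stress. Levels below are log2 intensities after background correction and quantile normalisation, a change is trabectedin minus DMSO on that scale, and its error is the standard error with n = 3 per group. A change was called at an adjusted p under 0.05 in limma, adjusted by Benjamini-Hochberg over all 13482 probes tested.

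Brightness differed between treated and control arrays and bears on every change below. Mean probe intensity ran from 182.8 to 556 over the 24 arrays. It was 460 with trabectedin against 539 in DMSO in U2932 at 8 h and 365 against 543 at 24 h, and 365 against 326 in OCI-Ly7 at 8 h and 235 against 366 at 24 h. The two-sided p from exact permutation was 0.1, 0.1, 0.4 and 0.1, in a design that cannot give a p below 0.1. Between 11085 and 15425 probes per array were detected, meaning brighter than nearly all probes of gene families that B cells do not use. Quantile normalisation gives every array the same distribution, so that its changes are relative to the other probes of the same array. Median scaling sets only the medians of the arrays equal, and so keeps part of the differences in brightness. With it the median change of all measurable probes was -0.54 in U2932 at 8 h, -1.08 at 24 h, 0.04 in OCI-Ly7 at 8 h and -0.53 at 24 h. A main probe's change under median scaling is given where its direction or call differed. All U2932 arrays were on 1 chip, and the OCI-Ly7 DMSO arrays and the OCI-Ly7 trabectedin arrays of 8 h on another. The OCI-Ly7 trabectedin arrays of 24 h had a chip of their own, so that for the OCI-Ly7 change at 24 h, and for any comparison of the lines, chip and group cannot be told apart. Of the defining B cell markers MS4A1, CD79A, CD79B, CD22 and HLA-DRA were detected on all 24 arrays, BLNK on 9 and PAX5 on 0, and of 8 T and NK cell markers 0 were detected on any array. CD14 was detected on 12 U2932 and 7 OCI-Ly7 arrays, EPCAM on 12 U2932 arrays and DCN on 7 of them. Of 8 myeloid markers S100A8, S100A9, CSF1R and CD163 were detected on 0 arrays, and the summed intensity of all 8 in U2932 ranged from 973 to 1052 in DMSO and 1605 to 1833 with trabectedin at 8 h, and from 1004 to 1040 and 1896 to 2183 at 24 h. In OCI-Ly7 it ranged from 767 to 834 and 888 to 1129 at 8 h and from 705 to 943 and 796 to 928 at 24 h. The part of these markers in the results was not tested.

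Of the 22 member probes 21 were tested, and at least 1 for each of the 10 genes. The probe left out, BAX ILMN_2258383, was detected on none of the 24 arrays. A probe was counted in a comparison only where at least 1 array involved detected it, which left 21 member probes in U2932 and 16 in OCI-Ly7, where the 4 BCL2 probes and the BCL2A1 probe were detected on no array. The brightest tested probe of a gene is called its main probe.

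The promoters of 4 members that differed in their response are shown for their base composition and core motifs. PMAIP1 and BCL2L11 had main probes that were higher with trabectedin at 24 h in both lines after quantile normalisation. Under median scaling BCL2L11 was lower in U2932 and not called in OCI-Ly7. BCL2 had a main probe that was lower in U2932, and BCL2A1, a BCL2 family target of NF-kB, was detected in U2932 alone. Each promoter is the stretch before the annotated start in RefSeq's GRCh38.p14, 250 bases long, written 5′ to 3′ on the gene's own strand. They lie at chr18:59899746-59899995 (plus strand, PMAIP1), chr2:111120664-111120913 (plus strand, BCL2L11), chr18:63319770-63320019 (minus strand, BCL2) and chr15:79971197-79971446 (minus strand, BCL2A1). Capitals mark matches, on either strand, to a TATA box (TATAAA), a GC box (GGGCGG), the box named for its letters CCAAT, a cAMP response element (TGACGTCA), an AP-1 site (TGANTCA) or an E-box (CACGTG).
PMAIP1: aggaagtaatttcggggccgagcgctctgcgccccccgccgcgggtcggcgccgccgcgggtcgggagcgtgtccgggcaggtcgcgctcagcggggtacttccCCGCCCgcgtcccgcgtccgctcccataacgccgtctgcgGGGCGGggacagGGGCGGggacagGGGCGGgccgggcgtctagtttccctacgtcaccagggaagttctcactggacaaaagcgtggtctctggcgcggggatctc
BCL2L11: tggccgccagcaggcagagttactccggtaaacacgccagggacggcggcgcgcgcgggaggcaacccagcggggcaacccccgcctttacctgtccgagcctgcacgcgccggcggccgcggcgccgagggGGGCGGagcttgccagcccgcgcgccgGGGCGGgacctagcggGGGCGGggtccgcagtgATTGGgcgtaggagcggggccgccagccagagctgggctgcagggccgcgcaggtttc
BCL2: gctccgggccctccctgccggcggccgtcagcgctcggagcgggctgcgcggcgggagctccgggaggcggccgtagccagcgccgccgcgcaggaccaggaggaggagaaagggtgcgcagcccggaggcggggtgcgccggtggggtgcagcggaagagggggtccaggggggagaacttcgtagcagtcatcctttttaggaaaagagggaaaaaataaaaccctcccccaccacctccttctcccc
BCL2A1: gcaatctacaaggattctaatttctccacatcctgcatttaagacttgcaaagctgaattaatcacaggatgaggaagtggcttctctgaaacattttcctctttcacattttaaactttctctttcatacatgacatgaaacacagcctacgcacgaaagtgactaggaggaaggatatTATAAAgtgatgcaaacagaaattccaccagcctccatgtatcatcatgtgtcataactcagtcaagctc
PMAIP1 held 4 GC boxes, BCL2L11 held 3 GC boxes and 1 CCAAT box, and none of the 6 motifs was found in the BCL2 window. BCL2A1 held 1 match to the TATA box, with its first base at -70 from the start. Whether any match is used was not tested. Among all 35116 promoters of the same length, 42.6% held a GC box, 32% a CCAAT box, 10.7% a TATA box, 1.65% a cAMP response element, 6.57% an AP-1 site and 6.34% an E-box. GC content was 72.8% for PMAIP1, 76.8% for BCL2L11, 70% for BCL2 and 38.8% for BCL2A1, against a median of 58% over all promoters. Trabectedin binds guanine within certain base triplets, and the triplet AGC, the triplet GGC, the triplet CGG and the triplet TGG, counted on both strands, occurred 54 times in the PMAIP1 window, 78 in BCL2L11, 57 in BCL2 and 15 in BCL2A1, against a median of 42. These counts describe the windows and were not related to the changes. The set of promoters used held entries for 9 of the 10 members and none for MCL1.

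**Figure D1:**
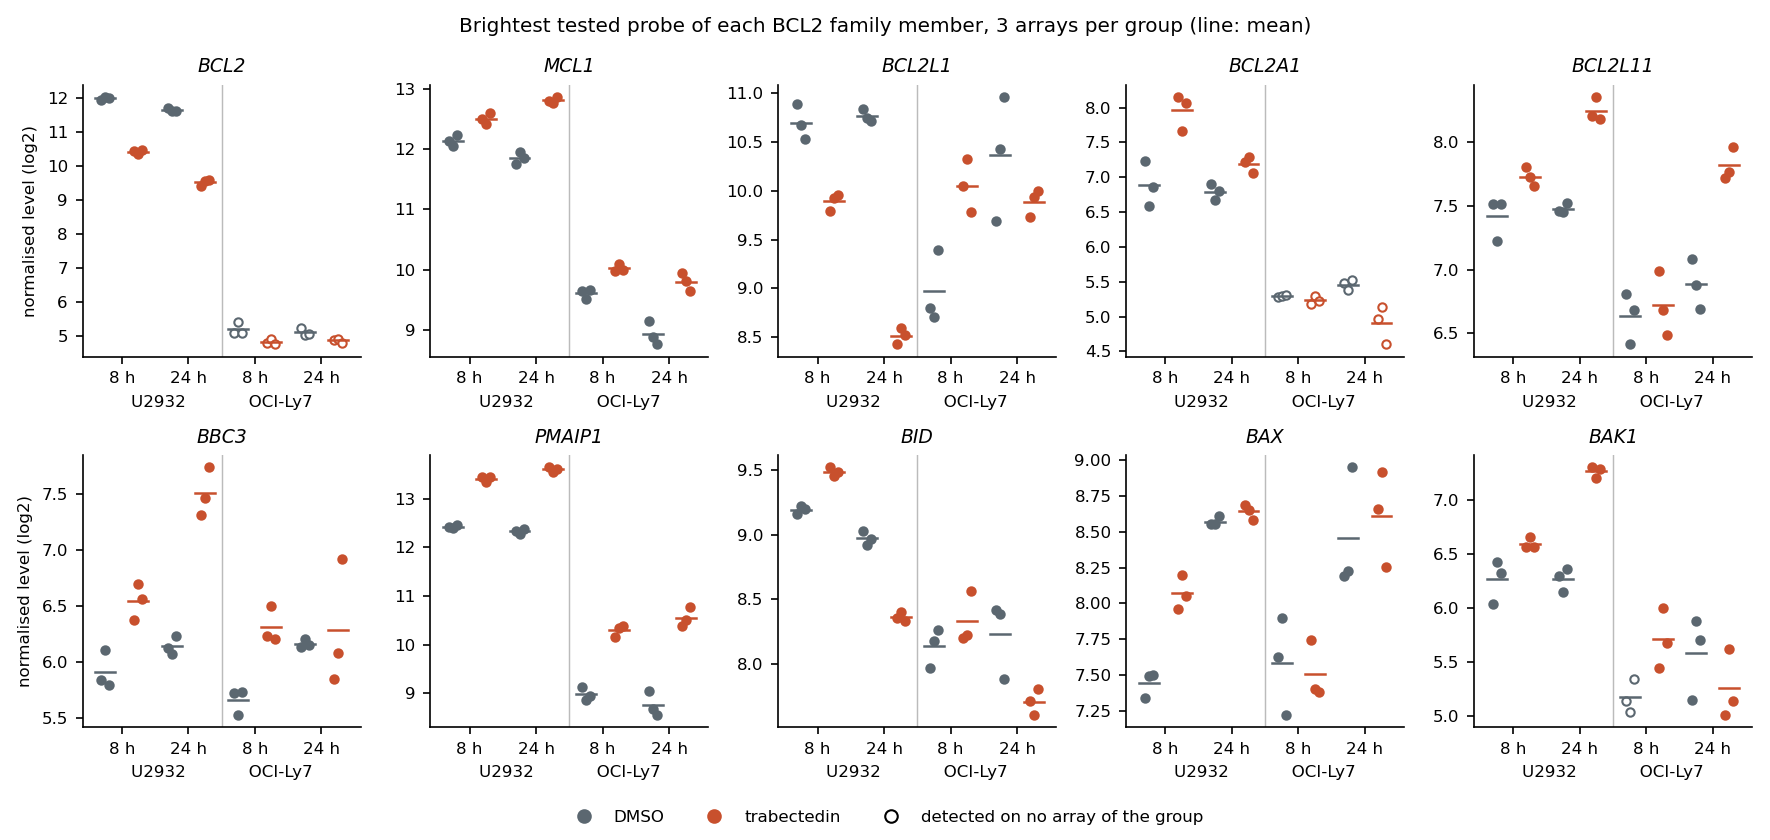
Normalised log2 level (vertical axis) of the main probe of each BCL2 family member on the 24 arrays, by line, time and treatment; points are arrays, lines are means of 3 and open points mark groups detected on no array. BCL2 in U2932 falls from between 11.93 and 12.02 in DMSO at 8 h to between 9.41 and 9.59 with trabectedin at 24 h, and PMAIP1 is highest with trabectedin at 24 h in both lines.

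In U2932 at 8 h, BCL2 and BCL2L1 were lower with trabectedin, while PMAIP1, MCL1 and the other members were higher by main probe relative to the rest of the array; of the latter, BCL2L11, BBC3, BID, BAX and BAK1 were below 0 under median scaling. Of the 21 member probes 15 were higher, 4 lower and 2 not called, against a background in which 79.6% of all measurable probes were called, 38.3% higher and 41.3% lower. By main probe the count was 8 higher and 2 lower, where 79.5% of all genes were called, 38.5% higher and 41.0% lower. The median change of the member probes was 0.40, against -0.02 over all probes. Which members rose depended on the scaling: with median scaling 4 probes were higher and 7 lower, without scaling 4 and 14. Shares of all probes are not given for these counts, and the median change of all probes was also below 0 under median scaling. The 4 probes called higher under all 4 ways of scaling were both PMAIP1 probes, MCL1 ILMN_1803988 and BCL2 ILMN_1701120, and the 4 called lower were BCL2 ILMN_1801119 and ILMN_2246956 and both BCL2L1 probes.

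In U2932 at 24 h the falls of BCL2 and BCL2L1 were deeper, BID was lower, and PMAIP1 and MCL1 were higher still. Of 21 member probes 10 were higher, 6 lower and 5 not called, where 86.6% of all probes were called, 38.8% higher and 47.8% lower. By main probe 6 genes were higher, 3 lower and 1, BAX, not called, where 86.7% of all genes were called, 39.5% higher and 47.2% lower. The member median was 0.40 against -0.16 over all probes. Median scaling, under which the median change of all probes was further below 0, gave 4 higher and 15 lower. Both PMAIP1 probes and MCL1 ILMN_1803988 were called higher under all 4 scalings. Called lower under all 4 were the same pair of BCL2 probes, both BCL2L1 probes and BID ILMN_1763386 and ILMN_2372413. Since no label states that the 3 arrays of a group came from independent cultures, a p-value gauges array-to-array spread and no more, and in bulk RNA fewer cells expressing a gene and less RNA per cell cannot be told apart.

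In OCI-Ly7 at 8 h, PMAIP1 was higher as in U2932, but BCL2L1 was higher rather than lower. Of 16 measurable member probes 7 were higher, 3 lower and 6 not called, where 63.5% of all probes were called, 30.2% higher and 33.3% lower. By main probe 5 of 8 genes (MCL1, BCL2L1, BBC3, PMAIP1 and BAK1) were higher, 0 were lower and 3 were not called, where 63.7% of all genes were called, 30.5% higher and 33.2% lower. The member median was 0.24 against -0.02. Median scaling gave 7 higher and 1 lower, and BCL2L1 ILMN_1654118 and both PMAIP1 probes were called higher under all 4 scalings, BAX ILMN_1683300 lower.

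In OCI-Ly7 at 24 h, MCL1, BCL2L11 and PMAIP1 were higher and BID lower by main probe, although MCL1 and BCL2L11 were below 0 without scaling. Of 16 member probes 6 were higher, 2 lower and 8 not called, where 48.9% of all probes were called, 22.1% higher and 26.8% lower. By main probe 3 of 8 genes were higher, 1 lower and 4 not called, where 49.0% of all genes were called, 24.0% higher and 25.0% lower. The member median was 0.14 against -0.03. Median scaling, under which the median change of all probes was also below 0, gave 1 higher (PMAIP1 ILMN_2098446) and 5 lower. No member probe was called higher under all 4 scalings, and BCL2L1 ILMN_1742410 and BID ILMN_1763386 were called lower under all 4.

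**Figure D2:**
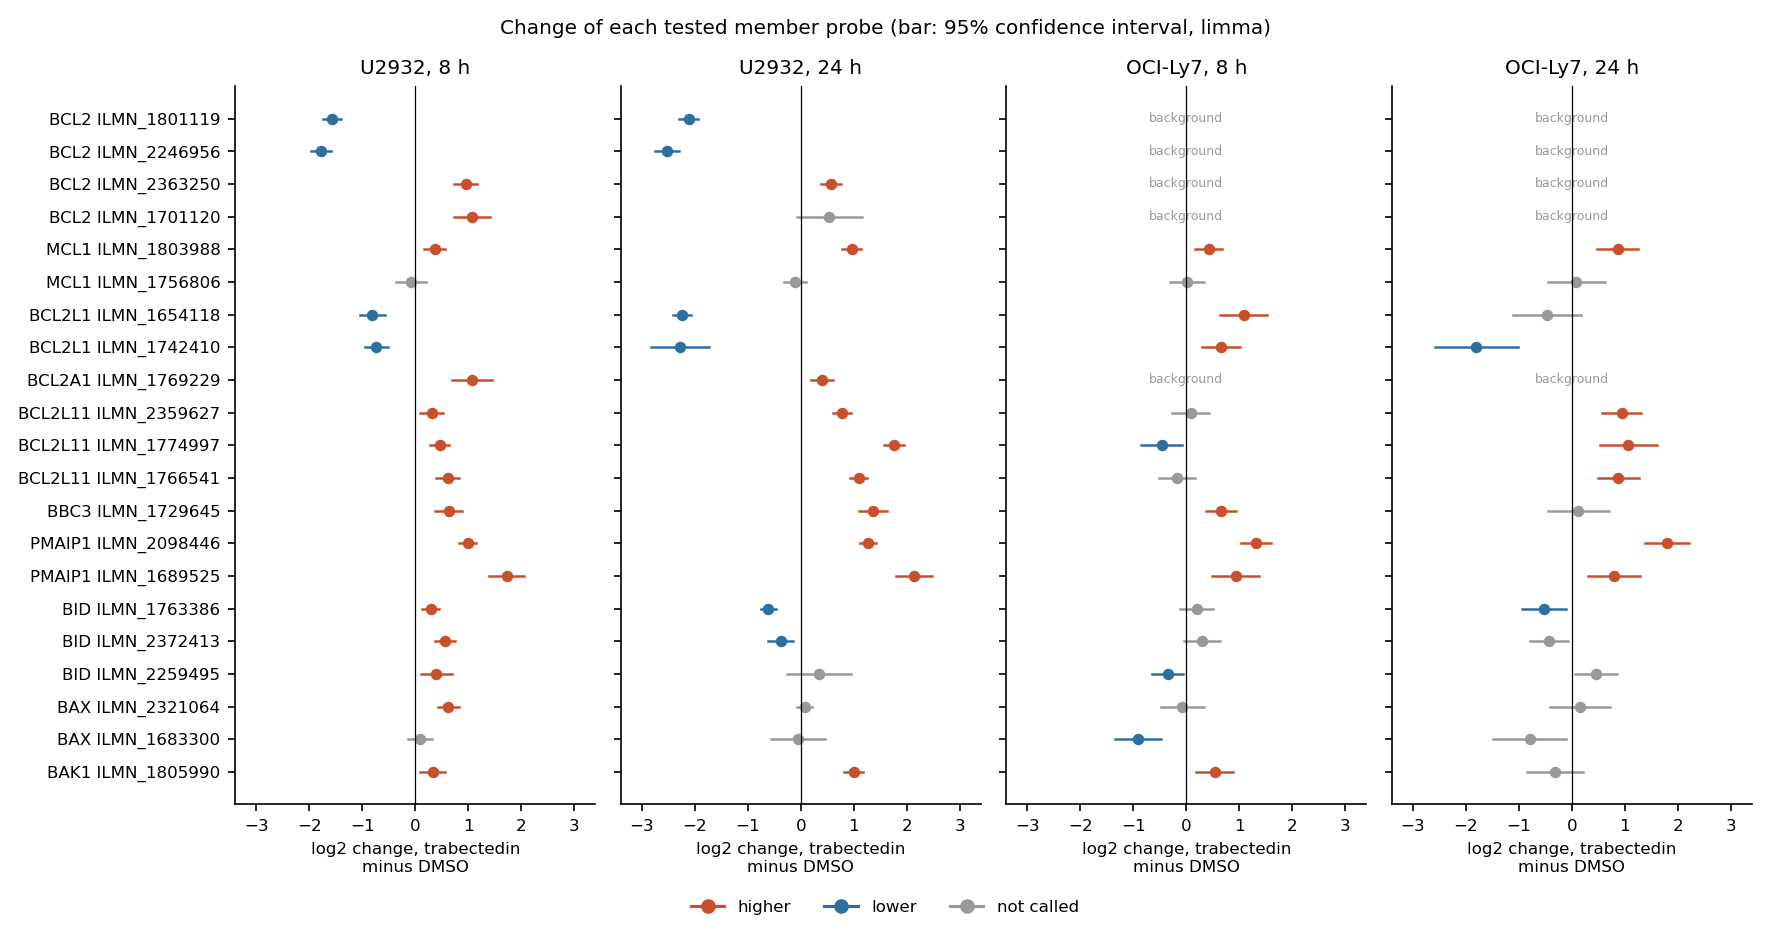
Log2 change, trabectedin minus DMSO (horizontal axis), of each tested member probe in the 4 comparisons; points are estimates, bars are 95% confidence intervals from limma, and colour gives the call. The BCL2 probes ILMN_1801119 and ILMN_2246956 lie at -1.57 and -1.78 in U2932 at 8 h while ILMN_2363250 and ILMN_1701120 lie at 0.95 and 1.07; "background" marks probes detected on no array of the comparison.

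BCL2 is the guardian for which the family is named. Its main probe, ILMN_1801119, annotated to the transcript of the alpha isoform, read 11.93, 12.02 and 11.997 in U2932 DMSO at 8 h and 10.43, 10.34 and 10.46 with trabectedin. At 24 h it read 11.70, 11.61 and 11.59 in DMSO and 9.41, 9.54 and 9.59 with trabectedin. Every treated array lay below every control array at both times, and the lowest levels were those of trabectedin at 24 h. The change was -1.57 ± 0.07 at 8 h (limma adjusted p = 5.16e-08) and -2.12 ± 0.07 at 24 h (adjusted p = 1.22e-07), and it was deeper at 24 h, by a difference of -0.55 ± 0.10 (adjusted p = 0.000438). The other alpha probe, ILMN_2246956, was lower by 3.43-fold at 8 h and by 5.76-fold at 24 h. In deposited intensity, the mean of ILMN_1801119 went from 6282 to 1772 at 8 h and from 5076 to 610 at 24 h.

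The remaining BCL2 probes, annotated to the shorter beta transcript, did not follow the alpha probes. ILMN_2363250 read 7.44, 7.46 and 7.73 in U2932 DMSO at 8 h and 8.50, 8.58 and 8.41 with trabectedin, a rise of 0.95 ± 0.10 (limma adjusted p = 1.03e-05) that was smaller, 0.24, under median scaling. Its deposited intensity was nearly level at 8 h, 469 in DMSO and 478 with trabectedin. At 24 h it was higher by 0.57 ± 0.08 (adjusted p = 0.000262) but stood at -0.77 under median scaling, and its mean intensity was 512 in DMSO and 262 with trabectedin. The dim probe ILMN_1701120 was higher by 1.07 ± 0.15 at 8 h (adjusted p = 9.18e-05), and it was detected on 1 of the 3 DMSO arrays and on all 3 treated arrays. At 24 h it was detected on none of the DMSO arrays and on 1 treated array and was not called (adjusted p = 0.0881). In OCI-Ly7 all 4 BCL2 probes were in the background on all 12 arrays. In DMSO, U2932 was higher than OCI-Ly7 by at least 87.2-fold at 8 h and at least 65-fold at 24 h for ILMN_1801119, and by at least 108-fold and at least 83.8-fold for ILMN_2246956. Such a bound sets the U2932 mean against the lowest detected signal on the OCI-Ly7 arrays, or the probe's own where that was higher.

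**Figure D3:**
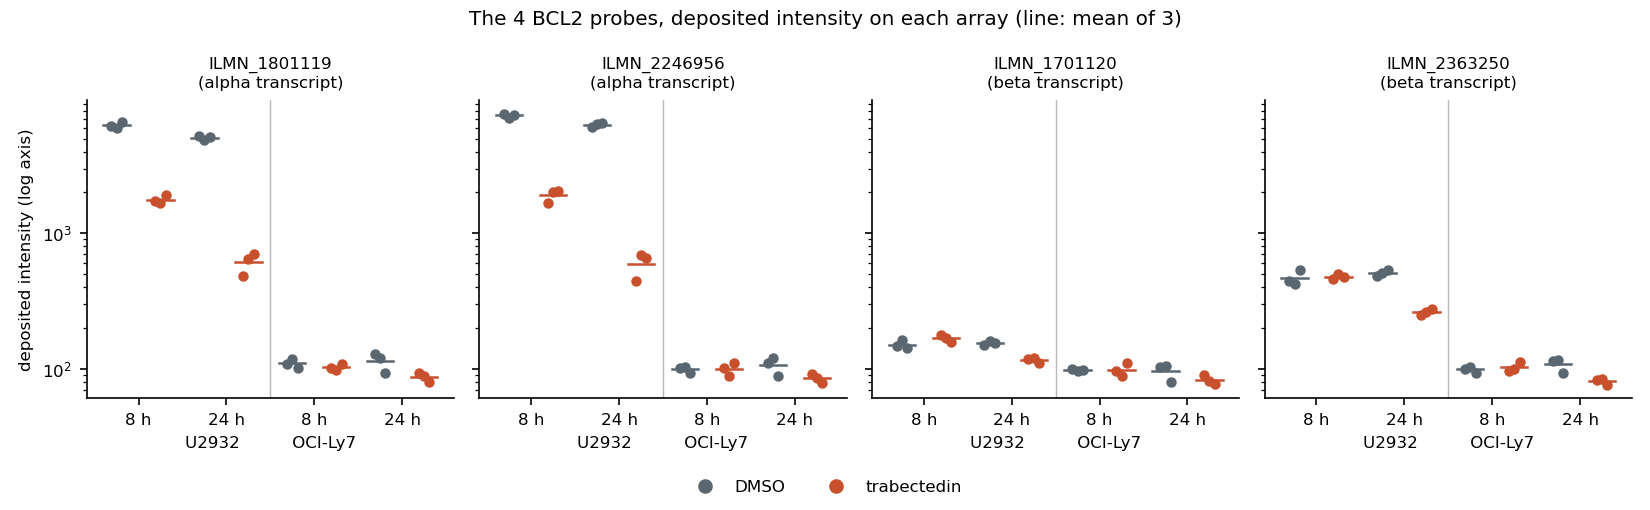
Deposited intensity on a log axis (vertical) of the 4 BCL2 probes on each array, by line, time and treatment, with means of 3 as lines; titles give the annotated transcript. In U2932 the alpha probe ILMN_1801119 drops from a mean of 6282 to 1772 at 8 h and from 5076 to 610 at 24 h, while the beta probe ILMN_2363250 is at 469 and 478 at 8 h and at 512 and 262 at 24 h.

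MCL1, a short-lived guardian that binds NOXA and BIM, was higher with trabectedin in all 4 comparisons by its main probe, though not in OCI-Ly7 at 24 h under median scaling or without scaling. In U2932 ILMN_1803988 read 12.13, 12.05 and 12.24 in DMSO at 8 h and 12.50, 12.41 and 12.60 with trabectedin, and 11.75, 11.95 and 11.85 against 12.80, 12.77 and 12.87 at 24 h. In OCI-Ly7 it read 9.64, 9.51 and 9.66 against 9.98, 10.10 and 9.998 at 8 h, and 9.16, 8.88 and 8.76 against 9.95, 9.81 and 9.64 at 24 h. The groups did not overlap in any of these comparisons. The rises were 0.36 ± 0.08 (limma adjusted p = 0.00294) and 0.96 ± 0.07 (adjusted p = 8.65e-06) in U2932, and 0.42 ± 0.11 (adjusted p = 0.00876) and 0.87 ± 0.17 (adjusted p = 0.00291) in OCI-Ly7. In OCI-Ly7 at 24 h the rise was 0.14 under median scaling and the value was -0.36 without scaling, and the mean intensity was 491 with trabectedin against 641 in DMSO. The other MCL1 probe, ILMN_1756806, was detected on all 24 arrays and was not called in any of the 4 comparisons, with changes of -0.08, -0.10, 0.02 and 0.08. Under median scaling it was called lower in U2932, at -0.39 (adjusted p = 0.0167) and -0.71 (adjusted p = 0.000494), and without scaling it was lower in U2932 at both times and in OCI-Ly7 at 24 h (-0.55, -1.11 and -1.15). Its mean intensity in DMSO and trabectedin was 2385 and 1630 in U2932 at 8 h and 2826 and 1365 at 24 h, without overlap. Its 95% intervals ran from -0.36 to 0.19, -0.31 to 0.10, -0.30 to 0.34 and -0.46 to 0.62, so that after quantile normalisation in U2932 at 24 h the intervals of the MCL1 probes did not meet. Both probes are annotated to the same long transcript.

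BCL2L1 encodes BCL-XL, a guardian of the outer membrane with a pro-apoptotic splice form, BCL-XS. Its main probe, ILMN_1654118, read 10.89, 10.67 and 10.53 in U2932 DMSO at 8 h and 9.79, 9.93 and 9.95 with trabectedin, then 10.83, 10.74 and 10.72 against 8.43, 8.60 and 8.52 at 24 h. In OCI-Ly7 it read 8.80, 8.71 and 9.39 in DMSO at 8 h and 10.05, 10.33 and 9.78 with trabectedin, then 9.69, 10.43 and 10.96 against 9.73, 9.94 and 9.997 at 24 h. The groups were apart in U2932 at both times, with trabectedin low, and in OCI-Ly7 at 8 h, with trabectedin high, but overlapped in OCI-Ly7 at 24 h.

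The U2932 falls of BCL2L1 were -0.81 ± 0.10 (limma adjusted p = 5.01e-05) at 8 h and -2.25 ± 0.07 (adjusted p = 9.22e-08) at 24 h. The OCI-Ly7 rise at 8 h was 1.08 ± 0.20 (adjusted p = 0.00093). At 24 h in OCI-Ly7 the change was -0.47 (95% interval -1.11 to 0.17, adjusted p = 0.206), but without DMSO replicate 1, the lowest of the controls, it was -0.81 and passed the test (adjusted p = 0.0153). It was also called lower there under median scaling (-1.12, adjusted p = 0.0188) and without scaling (-1.62, adjusted p = 0.00221), and its mean intensity was 1409 in DMSO and 501 with trabectedin, without overlap. The second probe, ILMN_1742410, was lower in U2932 by 1.67-fold and 4.84-fold, higher in OCI-Ly7 at 8 h by 1.57-fold and lower there at 24 h by 3.48-fold (adjusted p = 0.00273). The difference between the lines was itself called at 8 h, at -1.89 ± 0.24 for ILMN_1654118 (adjusted p = 2.87e-05) and -1.39 ± 0.20 for ILMN_1742410 (adjusted p = 7.13e-05), and kept its sign under all scalings. OCI-Ly7 DMSO arrays of 24 h were higher than those of 8 h by 1.39 ± 0.31 (adjusted p = 0.0432), so that the controls moved as well, and this call was lost when any 1 of 4 DMSO arrays was left out (lowest adjusted p among those 4 0.0585, highest 0.186).

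BCL2A1, also called BFL-1, is a guardian and a target of NF-kB. ILMN_1769229 read 7.23, 6.59 and 6.86 in U2932 DMSO at 8 h and 8.15, 7.67 and 8.07 with trabectedin, then 6.90, 6.67 and 6.80 against 7.22, 7.29 and 7.07 at 24 h. Treated arrays lay above control arrays at both times. The change was 1.07 ± 0.17 at 8 h (limma adjusted p = 0.000251), where it stood at 0.31 under median scaling, and 0.40 ± 0.09 at 24 h (adjusted p = 0.00368), where it turned to -1.04 under median scaling. In OCI-Ly7 the probe was in the background on all 12 arrays, and U2932 DMSO was at least 2.56-fold higher at 8 h and at least 2.27-fold higher at 24 h.

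Among the BH3-only members, PMAIP1 was the most uniform. PMAIP1 encodes NOXA, which binds MCL1 and BFL-1. Its main probe, ILMN_2098446, read 12.41, 12.39 and 12.46 in U2932 DMSO at 8 h and 13.44, 13.34 and 13.45 with trabectedin, and 12.34, 12.27 and 12.37 against 13.64, 13.55 and 13.61 at 24 h. In OCI-Ly7 it read 9.14, 8.86 and 8.94 against 10.16, 10.34 and 10.38 at 8 h, and 9.04, 8.68 and 8.56 against 10.39, 10.50 and 10.78 at 24 h. Every treated array was above every control array of its line and time. The rises were 0.99 ± 0.07 (limma adjusted p = 9.9e-07), 1.27 ± 0.06 (adjusted p = 6.84e-07), 1.31 ± 0.13 (adjusted p = 1.96e-05) and 1.80 ± 0.19 (adjusted p = 0.000117) in the order given.

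PMAIP1 was also higher in deposited intensity, before any scaling, in 3 of the 4 comparisons. The means of ILMN_2098446 in DMSO and trabectedin were 8001 and 15112 in U2932 at 8 h, 7599 and 14711 at 24 h and 557 and 1293 in OCI-Ly7 at 8 h, with no overlap, whereas in OCI-Ly7 at 24 h they were 588 and 748 and the arrays overlapped. The other probe, ILMN_1689525, rose by 1.72 ± 0.15 and 2.14 ± 0.15 in U2932 and by 0.93 ± 0.20 in OCI-Ly7 at 8 h. At 24 h in OCI-Ly7 it rose by 0.80 ± 0.22 (limma adjusted p = 0.0148), but the value was 0.16 and not called under median scaling and -0.34 without scaling, and without DMSO replicate 2 the call was lost (adjusted p = 0.0558). The difference between lines at 24 h was 1.34 ± 0.28 for ILMN_1689525, larger in U2932 (adjusted p = 0.000983), and -0.52 ± 0.20 for ILMN_2098446, larger in OCI-Ly7 (adjusted p = 0.0371), so that the PMAIP1 probes did not order the lines alike. The latter turned to 0.31 under median scaling, and its call held only without OCI-Ly7 DMSO 24 h replicate 1 or OCI-Ly7 trabectedin 24 h replicate 1 or 2 when 1 array was left out. In DMSO, PMAIP1 ILMN_2098446 was higher in U2932 than in OCI-Ly7 by 3.44 ± 0.11 at 8 h and 3.57 ± 0.14 at 24 h.

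BCL2L11 encodes BIM, which binds all guardians and activates BAX and BAK. Its main probe, ILMN_2359627, read 7.52, 7.23 and 7.52 in U2932 DMSO at 8 h and 7.81, 7.72 and 7.66 with trabectedin, and 7.46, 7.45 and 7.52 against 8.21, 8.36 and 8.19 at 24 h. In OCI-Ly7 it read 6.81, 6.41 and 6.68 against 6.99, 6.68 and 6.49 at 8 h, where the groups overlapped, and 7.08, 6.88 and 6.69 against 7.72, 7.77 and 7.97 at 24 h, where they did not. The change was 0.31 ± 0.10 (limma adjusted p = 0.0151) in U2932 at 8 h and 0.78 ± 0.07 (adjusted p = 2.28e-05) at 24 h, which under median scaling were -0.50 and -0.58. In OCI-Ly7 it was 0.09 (95% interval -0.27 to 0.44, adjusted p = 0.672) at 8 h and 0.94 ± 0.17 (adjusted p = 0.00174) at 24 h, where it was 0.18 under median scaling and -0.32 without scaling. The U2932 call at 8 h was lost without DMSO replicate 2 (adjusted p = 0.0532). The other BCL2L11 probes, ILMN_1774997 and ILMN_1766541, were higher by 0.46 and 0.61 in U2932 at 8 h (-0.22 and -0.13 under median scaling), 1.77 and 1.10 at 24 h (-0.29 for the latter under median scaling), and 1.07 and 0.88 in OCI-Ly7 at 24 h (0.51 and 0.39, neither called, under median scaling, and -0.11 for the latter without scaling). In OCI-Ly7 at 8 h ILMN_1774997 was lower by 1.38-fold although its groups overlapped (adjusted p = 0.0395), and the call was lost when any 1 of DMSO replicate 1 and trabectedin replicates 2 and 3 was left out.

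BBC3 encodes PUMA, a p53 target that binds every guardian. ILMN_1729645 read 5.84, 6.11 and 5.80 in U2932 DMSO at 8 h and 6.38, 6.70 and 6.56 with trabectedin, and 6.13, 6.07 and 6.23 against 7.32, 7.47 and 7.74 at 24 h. In OCI-Ly7 it read 5.73, 5.53 and 5.73 against 6.24, 6.50 and 6.21 at 8 h and 6.13, 6.21 and 6.16 against 5.85, 6.09 and 6.92 at 24 h. Treated arrays were above controls except in OCI-Ly7 at 24 h, where they spanned them. The rises were 0.63 ± 0.11 (limma adjusted p = 0.0005), 1.36 ± 0.11 (adjusted p = 1.32e-05) and, in OCI-Ly7 at 8 h, 0.65 ± 0.13 (adjusted p = 0.00148). In U2932 they were -0.03 and 0.02 under median scaling. In OCI-Ly7 at 24 h the change was 0.12 (95% interval -0.46 to 0.69, adjusted p = 0.744; -0.38 and not called under median scaling), and the lines differed at 24 h by 1.25 ± 0.30 (adjusted p = 0.00333). That difference kept its sign under median scaling but not its call (0.40, adjusted p = 0.254).

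BID is cleaved by caspase-8 into a fragment that activates BAX and BAK, and thus ties death receptors to mitochondria. Its main probe, ILMN_1763386, read 9.16, 9.22 and 9.20 in U2932 DMSO at 8 h and 9.52, 9.46 and 9.48 with trabectedin, and 9.03, 8.92 and 8.97 against 8.36, 8.40 and 8.33 at 24 h. The groups did not overlap at either time, trabectedin being high at 8 h and low at 24 h. The change was 0.29 ± 0.07 (limma adjusted p = 0.00338) at 8 h, which turned to -0.23 under median scaling, and -0.61 ± 0.06 (adjusted p = 4.48e-05) at 24 h. The difference between times was -0.90 ± 0.08 (adjusted p = 2.26e-06). In OCI-Ly7 BID read 7.97, 8.18 and 8.26 against 8.20, 8.23 and 8.57 at 8 h, and 8.41, 8.39 and 7.89 against 7.71, 7.61 and 7.804 at 24 h, where the change of -0.52 ± 0.18 (adjusted p = 0.0431) was lost when any 1 of 5 arrays was left out, all but DMSO replicate 3. ILMN_2372413 was higher by 0.57 in U2932 at 8 h (-0.18 under median scaling) and lower at 24 h by 1.30-fold. The dim ILMN_2259495 was higher by 0.40 in U2932 at 8 h (-0.20 under median scaling), a call lost without trabectedin replicate 2 or DMSO replicate 1 or 3 (adjusted p = 0.0608, 0.0853 and 0.0632). In OCI-Ly7 at 8 h it was lower (adjusted p = 0.0395) and in the background on all treated arrays, so that no fold is given, and the call was lost without DMSO replicate 1 or 2 or trabectedin replicate 2 or 3 (adjusted p = 0.125, 0.116, 0.117 and 0.0666).

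The effectors showed no change common to all 4 comparisons. BAX oligomerises in the mitochondrial membrane, and its main probe, ILMN_2321064, read 7.34, 7.49 and 7.50 in U2932 DMSO at 8 h and 7.96, 8.20 and 8.05 with trabectedin, a rise of 0.63 ± 0.09 (limma adjusted p = 0.000111) that was -0.14 under median scaling. At 24 h the arrays read 8.55, 8.56 and 8.61 against 8.69, 8.66 and 8.58 and overlapped (change 0.07, 95% interval -0.08 to 0.22, adjusted p = 0.314), but the probe was called lower under median scaling (-1.15) and without scaling (-1.54), and its mean intensity was 821 in DMSO and 327 with trabectedin, without overlap. The U2932 DMSO arrays themselves were higher at 24 h than at 8 h by 1.13 ± 0.08 (adjusted p = 1.25e-06), on the same chip. In OCI-Ly7 BAX read 7.63, 7.90 and 7.22 against 7.74, 7.40 and 7.38 at 8 h and 8.19, 8.23 and 8.95 against 8.66, 8.92 and 8.26 at 24 h, with overlap at both times (intervals -0.47 to 0.32 and -0.41 to 0.72). At 24 h its change of 0.16 there stood at -0.58 under median scaling, not called, and was called lower without scaling (-1.08). A dimmer probe, ILMN_1683300, was at least 1.47-fold lower with trabectedin in OCI-Ly7 at 8 h (adjusted p = 0.00235).

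BAK1 encodes BAK, the effector that sits in the outer membrane in healthy cells, guarded by MCL1 and BCL-XL. ILMN_1805990 read 6.04, 6.43 and 6.33 in U2932 DMSO at 8 h and 6.57, 6.66 and 6.56 with trabectedin, and 6.29, 6.15 and 6.36 against 7.30, 7.21 and 7.29 at 24 h. Treated arrays were the higher at both times. The changes of 0.33 ± 0.10 (limma adjusted p = 0.0155) and 1.00 ± 0.08 (adjusted p = 7.79e-06) were -0.43 and -0.39 under median scaling. In OCI-Ly7 it was in the background on all DMSO arrays at 8 h and at least 1.13-fold higher with trabectedin (adjusted p = 0.0142), a call lost without DMSO replicate 2 (adjusted p = 0.0579). At 24 h the OCI-Ly7 change was -0.32 (95% interval -0.85 to 0.21, adjusted p = 0.299), and the lines differed by 1.32 ± 0.27 (adjusted p = 0.000864), which stood at -0.02 under median scaling.

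**Figure D4:**
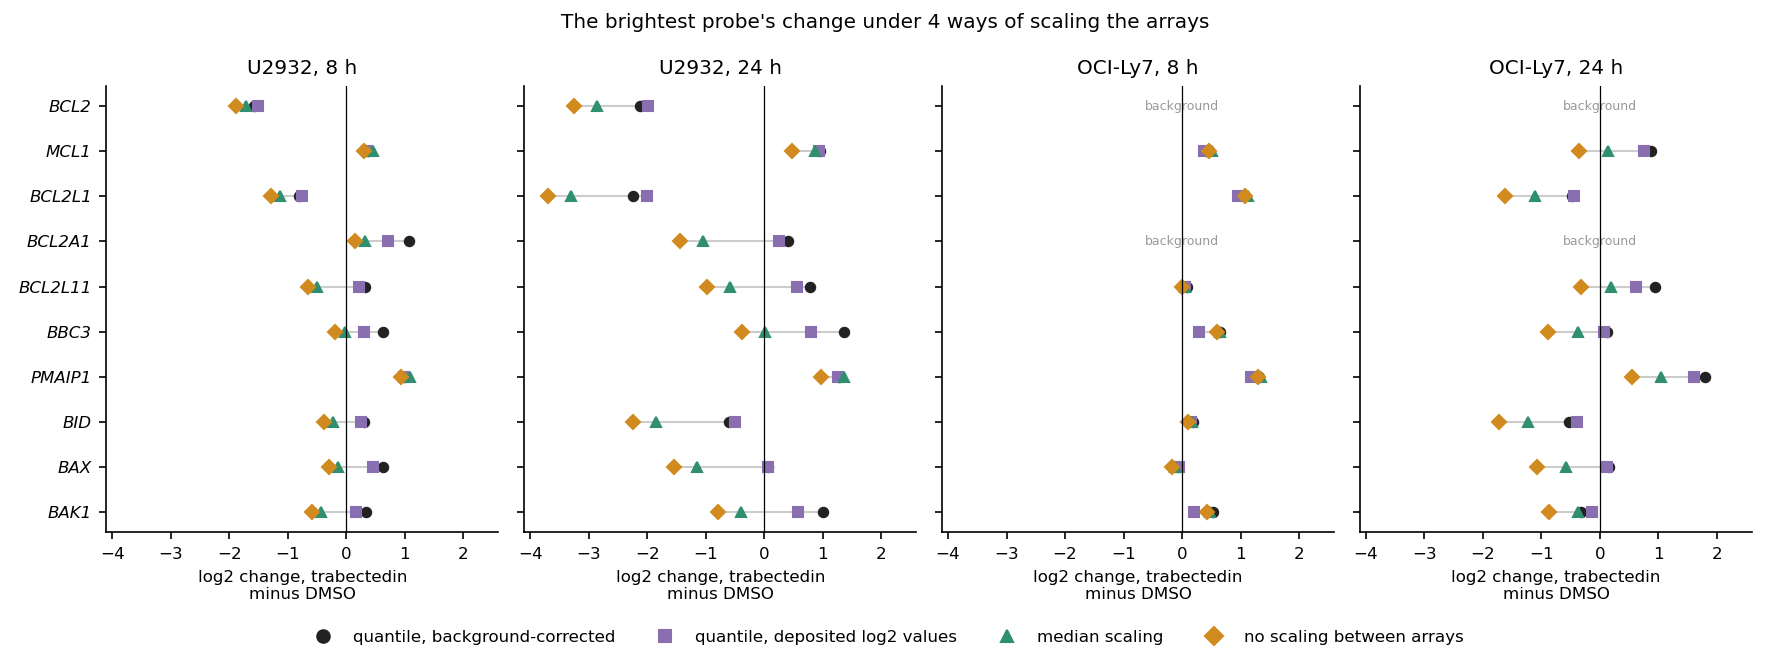
Log2 change, trabectedin minus DMSO (horizontal axis), of each member's main probe under 4 ways of scaling the arrays, marked by shape and colour. In U2932 BCL2, BCL2L1, MCL1 and PMAIP1 stay on 1 side of 0, while BCL2L11, BAX and BAK1 lie to the right of 0 after quantile normalisation and to the left under median scaling or none. In OCI-Ly7 at 8 h PMAIP1 lies at 1.31 after quantile normalisation and 1.35 under median scaling.

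The effect of trabectedin was set against itself between lines and between times. Of 16 member probes measurable in both lines, 8 differed between lines at 8 h, 6 higher and 2 lower in U2932, where 42.4% of all probes differed (17.2% higher and 25.2% lower). At 24 h 6 differed, 4 higher and 2 lower, where 57.4% of all probes differed (23.3% and 34.0%). Between times in U2932 16 of 21 differed, 7 higher and 9 lower at 24 h, where 57.0% of all probes differed (23.4% and 33.6%). Between times in OCI-Ly7 9 of 16 differed, 4 higher and 5 lower, where 32.7% differed (16.3% and 16.5%). Over time in U2932 MCL1 ILMN_1803988 (0.60), BBC3 (0.73, but -0.19 without scaling), BAK1 (0.67, but -0.20 without scaling) and PMAIP1 ILMN_2098446 (0.29) gained at 24 h, whereas BCL2L1 (-1.44), BID (-0.90), BCL2A1 (-0.67), BAX (-0.56) and BCL2 (-0.55) lost. BCL2A1 lost this call without trabectedin 8 h replicate 1, DMSO 24 h replicate 1 or DMSO 8 h replicate 2 (adjusted p = 0.0543, 0.0538 and 0.0543).

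In DMSO most member probes were brighter in U2932 than in OCI-Ly7. In DMSO at 8 h 17 of 21 member probes were higher in U2932, 2 lower and 2 not called, where 36.7% of all probes were higher and 33.8% lower (70.5% called). At 24 h 14 of 20 were higher, 0 lower and 6 not called, where 28.5% were higher and 26.0% lower (54.5% called). The BCL2 and BCL2A1 probes in these counts were detected on no OCI-Ly7 array. They passed the detection filter through U2932 alone, so that the filter itself favoured their counting as higher in U2932. MCL1 ILMN_1803988 was higher by 2.54 ± 0.10 and 2.92 ± 0.13, BID ILMN_1763386 by 1.06 ± 0.11 and 0.74 ± 0.15 and BCL2L11 ILMN_2359627 by 0.79 ± 0.13 and 0.59 ± 0.12. BCL2L1 ILMN_1654118 was higher by 1.73 ± 0.16 at 8 h, and at 24 h the difference was 0.40 (95% interval -0.23 to 1.04, adjusted p = 0.257 in limma) but 0.70 without OCI-Ly7 DMSO replicate 3 (adjusted p = 0.00911). BBC3 was not called at either time (0.25 and -0.02, adjusted p = 0.0674 and 0.873; 0.67 at 24 h under median scaling). BAX ILMN_2321064 was not called either (-0.14 and 0.12, adjusted p = 0.428 and 0.651; 0.71 at 8 h under median scaling). BCL2L11 ILMN_1774997 was lower in U2932 at 8 h by 1.32-fold, but stood at 0.27 under median scaling, and the call was lost without U2932 replicate 2 or OCI-Ly7 replicate 1 (adjusted p = 0.0541 and 0.0658).

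Some members differed between the DMSO arrays of 8 h and those of 24 h. In U2932 DMSO 3 of 21 member probes were higher and 4 lower at 24 h than at 8 h, where 23.2% of all probes were called (11.5% higher and 11.7% lower), with BAX ILMN_2321064 the most raised and BCL2 ILMN_1801119 at -0.35 ± 0.07 (limma adjusted p = 0.00457). MCL1 ILMN_1803988 was lower by 1.22-fold (adjusted p = 0.0227), a call lost without DMSO 8 h replicate 3 or DMSO 24 h replicate 1 or 3. In OCI-Ly7 DMSO 3 of 16 were higher (both BCL2L1 probes and BBC3) and 1 lower (MCL1 ILMN_1803988), where 6.68% of all probes were called (3.05% higher and 3.62% lower). These 4 calls were lost when any 1 of DMSO 8 h replicates 1, 2 and 3 and DMSO 24 h replicate 2 was left out, and that of BBC3 also without DMSO 24 h replicate 3 (adjusted p = 0.057).

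The order of levels over the 8 groups differed between members. PMAIP1 ran from U2932 with trabectedin at 24 h (mean 13.60) through U2932 with trabectedin at 8 h (13.41), U2932 DMSO at 8 h (12.42) and at 24 h (12.33) to OCI-Ly7 with trabectedin at 24 h (10.56) and 8 h (10.29), and only the lowest groups, OCI-Ly7 DMSO at 8 h (8.98) and 24 h (8.76), overlapped. MCL1 ran from 12.81 in U2932 with trabectedin at 24 h to 8.93 in OCI-Ly7 DMSO at 24 h, and the neighbours that overlapped were OCI-Ly7 with trabectedin at 24 h and OCI-Ly7 DMSO at 8 h. BCL2L1 ran from 10.76 in U2932 DMSO at 24 h to 8.52 in U2932 with trabectedin at 24 h, the lowest of all 8 groups, and each of the 6 highest groups, down to OCI-Ly7 with trabectedin at 24 h (9.89), overlapped its neighbour among them. BAX ran from 8.64 in U2932 with trabectedin at 24 h to 7.44 in U2932 DMSO at 8 h, and its only gap lay between U2932 with trabectedin at 8 h (8.07) and OCI-Ly7 DMSO at 8 h (7.58). Genes whose 8 group means followed a member's most closely, by Pearson correlation with no test, were ALKBH3 for BCL2 (r = 0.998), HLA-DRB4 for MCL1 (0.991), FAM3A for BCL2L1 (0.974), BUD13 for PMAIP1 (0.993), RPP25 for BAK1 (0.994) and RPS15 for BAX (0.902). The 8 means share the arrays and the scaling, and under median scaling the closest were TUFT1 for BCL2 (0.999), BMI1 for MCL1 (0.996) and PALB2 for BCL2L1 (0.991).

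The other BCL2 family genes changed in both directions. Their median changes were 0.06, -0.82, -0.13 and 0.09, against -0.01, -0.13, -0.01 and 0.02 over all genes. Of those measurable by main probe, 4 were higher and 4 lower of 10 in U2932 at 8 h, 3 and 5 of 9 at 24 h, 2 and 1 of 9 in OCI-Ly7 at 8 h and 2 and 2 of 10 at 24 h, where 38.5%, 39.5%, 30.5% and 24.0% of all genes were higher and 41.0%, 47.2%, 33.2% and 25.0% lower. Under median scaling 1 was higher and 6 lower, then 1 and 7, 2 and 1, and 0 and 3. BMF, a BH3-only gene, rose by 1.32 ± 0.09 and 2.03 ± 0.08 in U2932 (limma adjusted p = 4.24e-07 and 2.62e-07). BCL2L13, an outer membrane protein of the family, was lower in all 4 comparisons, with log2 changes of -1.70, -2.23, -0.67 and -0.86. BIK, a BH3-only gene, was lower at 24 h, with changes of -1.11 in U2932 and -0.61 in OCI-Ly7, and BAD rose by 1.31 ± 0.19 in OCI-Ly7 at 8 h. HRK was called higher in 3 comparisons but was below 0 without scaling in each.

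Of 16 mitochondrial death genes 7 rose and 6 fell in U2932 at 8 h, 4 and 9 at 24 h, 3 and 6 in OCI-Ly7 at 8 h and 4 and 6 at 24 h, with medians of -0.08, -0.49, -0.23 and -0.21, where 38.5%, 39.5%, 30.5% and 24.0% of all genes were higher and 41.0%, 47.2%, 33.2% and 25.0% lower. Under median scaling 2 were higher and 10 lower, then 3 and 13, 3 and 4, and 0 and 7. CYCS (cytochrome c) rose by 2.41 ± 0.09 and 2.97 ± 0.07 in U2932 and by 1.34 ± 0.16 in OCI-Ly7 at 8 h, and its rise of 0.85 at 24 h in OCI-Ly7 stood at -0.44 without scaling. OPA1, which shapes the cristae that hold cytochrome c, was at least 4.33-fold lower in U2932 at 8 h and at least 3.47-fold lower at 24 h, and its change in OCI-Ly7 was -1.48 ± 0.21 and -1.44 ± 0.19. APAF1, the apoptosome scaffold, was at least 2.39-fold lower in U2932 at 8 h and its change in OCI-Ly7 at 8 h was -1.82 ± 0.13.

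The balance of the lists of regulators depended on the scaling. The shares of all genes called after quantile normalisation are those given for the mitochondrial genes, and none are given for median scaling. Of 16 p53 targets 8 rose and 3 fell in U2932 at 8 h, 9 and 5 at 24 h, 4 and 3 in OCI-Ly7 at 8 h and 8 and 3 at 24 h, with medians of 0.25, 0.46, -0.13 and 0.71. Under median scaling the balance turned in 3 of these, with 3 higher and 8 lower, 4 and 9, 4 and 3, and 1 and 4. AEN, a p53-induced nuclease, rose by 1.59, 2.55 and 0.84 in the first 3, and RRM2B, a ribonucleotide reductase subunit, was lower in all 4. NF-kB targets gave 6 higher and 6 lower of 16, then 2 and 10 of 16, 3 and 6 of 12 and 2 and 3 of 13, with medians of 0.01, -0.72, -0.38 and 0.20, and under median scaling 3 and 10, 1 and 14, 2 and 5, and 0 and 3. NFKB1, the precursor of the p50 subunit, was lower in all 4, with changes of -1.65, -3.44, -1.99 and -1.40. Other targets went the other way. NFKBIA was higher in U2932 at 8 h (1.34) and at 24 h (0.78, but -0.20 without scaling) and in OCI-Ly7 at 24 h (1.36). CCR7 was higher in U2932 at 8 h (1.02) and at 24 h (1.47). Transcription factors of the family gave 5 and 5 of 13, 6 and 5 of 13, 3 and 7 of 12 and 3 and 4 of 13, with medians of -0.01, 0.25, -0.64 and -0.13, and under median scaling 3 and 6, 3 and 7, 3 and 5, and 1 and 5. JUN was at least 5.07-fold and at least 14.3-fold higher in U2932 and rose by 1.23 ± 0.36 and 3.90 ± 0.23 in OCI-Ly7, and FOXO3, an activator of BCL2L11 and BBC3, was lower in U2932 at both times and in OCI-Ly7 at 8 h, with changes of -1.16, -1.90 and -1.32.

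Genes for the turnover of MCL1, BIM and NOXA proteins were mostly lower: 11 of 12 in U2932 at 8 h, 10 at 24 h, and 7 at both times in OCI-Ly7, with 1 higher in each, where 41.0%, 47.2%, 33.2% and 25.0% of all genes were lower. Their median changes were -0.85, -1.45, -0.54 and -0.73, against -0.01, -0.13, -0.01 and 0.02 over all genes. FBXW7, a ubiquitin ligase receptor for MCL1, was at least 8.18-fold lower in U2932 at 8 h and at least 5.79-fold lower at 24 h, and its change in OCI-Ly7 at 24 h was -1.76 ± 0.22. USP9X, the deubiquitinase that stabilises MCL1, was lower in U2932 at 8 h (-2.55 ± 0.08) and in OCI-Ly7 at both times (-2.10 ± 0.13 and -1.41 ± 0.20). In U2932 at 24 h it was not among the 2 deepest falls, so that no value is given. All 12 genes of the list, USP9X included, were lower there under median scaling. The list thus held genes that remove MCL1 and a gene that spares it, and both kinds were lower. MAPK3, the kinase ERK1, which marks BIM for degradation, was the higher gene in 3 comparisons but was below 0 without scaling in each. Under median scaling the counts of this list were 0 higher and 10 lower, 0 and 12, 1 and 5, and 0 and 8.

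**Figure D5:**
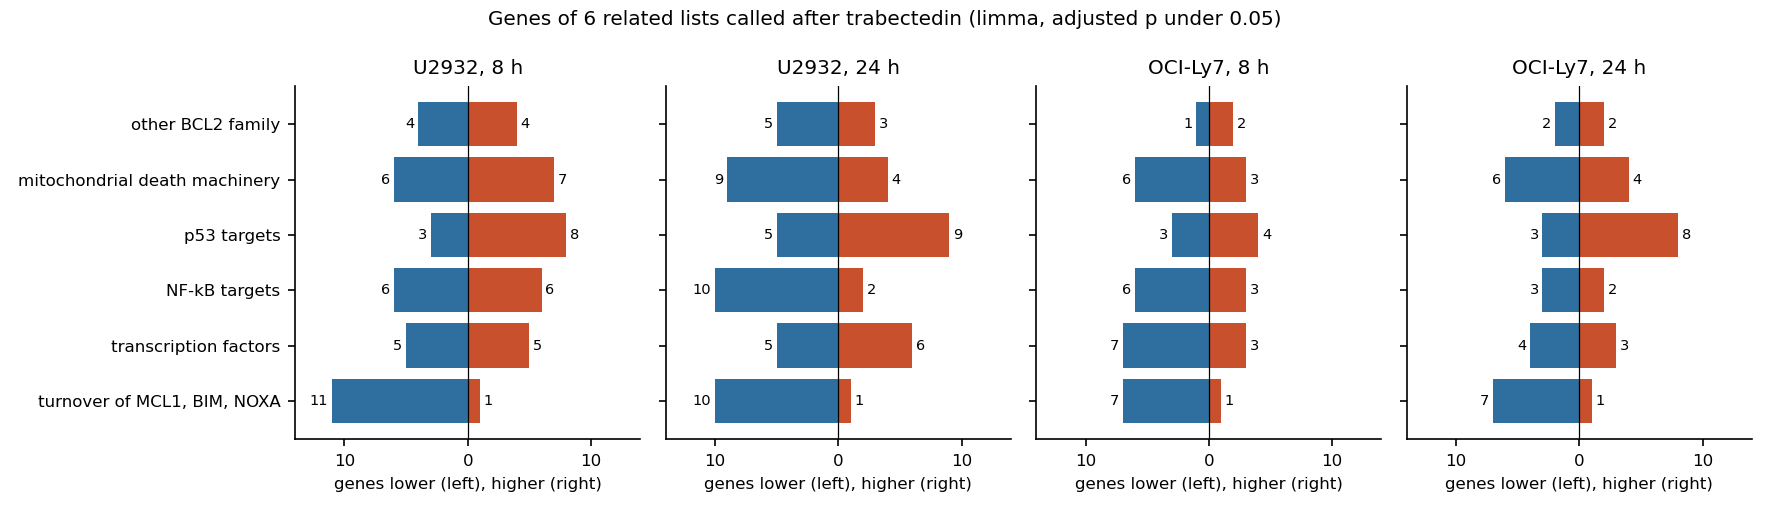
Number of genes called lower (bars to the left of 0) and higher (bars to the right) in 6 lists around the BCL2 family, in the 4 comparisons of trabectedin with DMSO. Genes of MCL1, BIM and NOXA protein turnover lie mostly to the left, with 11 of 12 lower in U2932 at 8 h, and p53 targets show 8 higher and 3 lower there after quantile normalisation, as plotted, but 3 and 8 under median scaling and 3 and 10 without scaling.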

How the data were processed

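RNA from 24 samples was hybridised to 1-colour Illumina bead arrays, 1 sample per array. The authors deposited, per the file headers, probe intensities on a linear scale for each array and a table of log2 values. The deposited log2 values equalled quantile-normalised log2 intensities to within 4.9945e-09, with no background correction. Here the intensities were background-corrected (normexp, offset 16), quantile-normalised and put on the log2 scale with limma 3.58.1 in R 4.3.3. Of 47231 probes 30113 carried 1 gene symbol in GEO's platform annotation of 2016, 8 several and 17110 none. No detection p-values were used from the files, so a detection p was set against 658 probes of gene families silent in B cells, and probes under 0.01 on at least 3 arrays were tested, 13482 probes of 10173 genes. Changes were tested in limma (lmFit, eBayes) with the arrays of the groups compared and Benjamini-Hochberg adjustment over all tested probes, in 12 comparisons, and a call needed an adjusted p under 0.05. The procedure was tested on simulated data. The precision is limited by 3 arrays per group.

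The members and lists were chosen with earlier results of these data known. All members were named by their main probe, the brightest tested. Genes named from each list were picked from those with the largest called rise and fall in each comparison, at most 2 each way. Others of these were left unnamed. A comparison not given for a named list gene does not mean that the gene was unchanged there. Deviations of same-numbered arrays correlated from -0.07 to 0.21, and those of other arrays from -0.20 to 0.22. Replicate numbers were therefore not used as pairs, although 3 arrays per group cannot exclude pairing. Alternatives were the deposited log2 values, median scaling, no scaling, offset 50, other detection filters, a spread shared over all arrays, array weights, the replicate block and leaving out each array. Of these, the setting without scaling between arrays was added after the data were seen, and the others were planned. Promoters were read with Python 3.11.15 and pandas 2.3.3, and figures drawn with matplotlib 3.10.9.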

Additional observations from a re-analysis of the deposited data

Results flagged for a closer look

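The results below are differences of the trabectedin effect between lines or between times that passed limma's test of the difference itself, with Benjamini-Hochberg adjustment over all tested probes. They are log2 differences after quantile normalisation, 8 and 6 probes between lines and 16 and 9 between times.

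Between lines at 8 h (U2932 minus OCI-Ly7), BCL2L1 differed by -1.89 (ILMN_1654118) and -1.39 (ILMN_1742410), being lower with trabectedin in U2932 and higher in OCI-Ly7. The other differences were positive. BCL2L11 differed by 0.79 (ILMN_1766541) and 0.92 (ILMN_1774997), PMAIP1 by 0.79 (ILMN_1689525), BAX by 0.70 (ILMN_2321064) and 1.00 (ILMN_1683300) and BID by 0.76 (ILMN_2259495). Under median scaling BAX ILMN_2321064 turned to -0.018, and none of BCL2L11 ILMN_1766541 (0.06), BCL2L11 ILMN_1774997 (0.27), PMAIP1 ILMN_1689525 (0.49) and BID ILMN_2259495 (0.07) was called. Without scaling BCL2L11 ILMN_1766541 (-0.040), BID ILMN_2259495 (-0.032) and BAX ILMN_2321064 (-0.12) turned. The pair BAX ILMN_1683300 and BID ILMN_2259495, was in the background in a group, so that the size of their differences is not measured.

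Line and chip cannot be told apart at either time, and at 24 h the OCI-Ly7 trabectedin arrays were also on a chip of their own. Between lines at 24 h, BCL2L1 differed by -1.78 (ILMN_1654118) and PMAIP1 by 1.34 (ILMN_1689525) and -0.52 (ILMN_2098446). BCL2L11 differed by 0.70 (ILMN_1774997), BBC3 by 1.25 and BAK1 by 1.32. Under median scaling PMAIP1 ILMN_2098446 turned to 0.31 and BAK1 to -0.015, and BCL2L11 ILMN_1774997 (0.0032) and BBC3 (0.40) were not called.

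Between times in U2932 (24 h minus 8 h), the guardians BCL2 (-0.55 for ILMN_1801119, -0.75 for ILMN_2246956, -0.38 for ILMN_2363250), BCL2L1 (-1.44 and -1.54) and BCL2A1 (-0.67) lost, and MCL1 gained (0.60). Among BH3-only genes BCL2L11 gained (0.48, 1.31 and 0.47 for ILMN_1766541, ILMN_1774997 and ILMN_2359627), as did BBC3 (0.73) and PMAIP1 (0.29), whereas BID lost (-0.90 and -0.95). Of the effectors BAX lost (-0.56) and BAK1 gained (0.67). Without scaling BCL2L11 ILMN_1766541 and ILMN_2359627, BBC3 and BAK1 turned to the other side of 0, and both BCL2L11 probes did so under median scaling too (-0.16 and -0.080), where BBC3 (0.05), BAK1 (0.03) and PMAIP1 (0.28) were not called.

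Between times in OCI-Ly7, where the treated arrays of 24 h were on a chip of their own, BCL2L1 lost (-1.55 and -2.45) and BID lost by 2 probes (-0.72 for both ILMN_1763386 and ILMN_2372413). BCL2L11 gained by 3 probes (1.06, 1.53 and 0.85, the last of them -0.31 without scaling), none of them called under median scaling. BAK1 (-0.86) and BID ILMN_2259495 (0.80) were in the background in a group.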

How the results depend on the processing

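Scaling was the choice that moved most results. Of the member results in the 4 comparisons of trabectedin with DMSO, 42 counted as unchanged under median scaling, 16 reversed, 10 lost and 6 gained a call. Without scaling 32 counted as unchanged, 25 reversed, 11 lost and 6 gained a call. A turn of sign counted as reversed only where either setting called the result, and as unchanged where neither did. BBC3 in OCI-Ly7 at 24 h (0.12, and -0.38 under median scaling) was such an uncalled turn. No member result in these comparisons reversed in this sense under any other setting. Under median scaling the reversed values in U2932 were, at 8 h, BBC3 -0.031, BID -0.23 (ILMN_1763386), -0.20 (ILMN_2259495) and -0.18 (ILMN_2372413), BCL2L11 -0.13 (ILMN_1766541), -0.22 (ILMN_1774997) and -0.50 (ILMN_2359627), BAK1 -0.43 and BAX -0.14. At 24 h they were BCL2L11 -0.29 (ILMN_1766541) and -0.58 (ILMN_2359627), BCL2A1 -1.04, BAK1 -0.39, BID -0.58 (ILMN_2259495), BAX -1.15 and BCL2 -0.77 (ILMN_2363250). Differences between lines reversed for BAX (-0.018) at 8 h and for BAK1 (-0.015), PMAIP1 ILMN_2098446 (0.31) and BID ILMN_2372413 (-0.91) at 24 h, and between times in U2932 for BCL2L11 ILMN_1766541 (-0.16) and ILMN_2359627 (-0.080). Between lines in DMSO BCL2L11 ILMN_1774997 (0.27) and BAX (0.71) reversed at 8 h and BBC3 (0.67) at 24 h.

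Without scaling the reversed values in U2932 at 8 h were BAX -0.40 (ILMN_1683300) and -0.30 (ILMN_2321064), BBC3 -0.19, BID -0.39 (ILMN_1763386), -0.36 (ILMN_2259495) and -0.34 (ILMN_2372413), BCL2L11 -0.28 (ILMN_1766541), -0.38 (ILMN_1774997) and -0.66 (ILMN_2359627) and BAK1 -0.59. In U2932 at 24 h they were BCL2 -0.55 (ILMN_1701120) and -1.17 (ILMN_2363250), BBC3 -0.37, BCL2L11 -0.68 (ILMN_1766541) and -0.97 (ILMN_2359627), BCL2A1 -1.44, BAK1 -0.79, BID -0.98 (ILMN_2259495) and BAX -1.54. In OCI-Ly7 at 24 h they were PMAIP1 -0.34 (ILMN_1689525), MCL1 -1.15 (ILMN_1756806) and -0.36 (ILMN_1803988), BCL2L11 -0.11 (ILMN_1766541) and -0.32 (ILMN_2359627) and BAX -1.08. Differences reversed between lines for BCL2L11 ILMN_1766541 (-0.040), BID ILMN_2259495 (-0.032) and BAX ILMN_2321064 (-0.12) at 8 h and PMAIP1 ILMN_2098446 (0.41) at 24 h, and between times for BBC3 (-0.19), BCL2L11 ILMN_1766541 (-0.40), BAK1 (-0.20) and BCL2L11 ILMN_2359627 (-0.32) in U2932 and BCL2L11 ILMN_2359627 (-0.31) in OCI-Ly7. In DMSO at 8 h BCL2L11 ILMN_1774997 (0.42) and BAX ILMN_2321064 (0.86) reversed between lines. With array weights BCL2L11 ILMN_1774997 reversed between lines in DMSO at 24 h (0.26). The mean number of detected probes per array, trabectedin minus DMSO, in OCI-Ly7 at 24 h was 234 and became -1311 at a detection p under 0.05. The causes were not tested.

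Counts of called probes that moved by over 1.5 times were as follows. Median scaling gave 11 member probes in U2932 at 8 h, 5 for the difference between lines at 8 h, 5 between times in OCI-Ly7, 4 over time in U2932 DMSO (1691 of all probes) and 0 over time in OCI-Ly7 DMSO (0 of all probes). No scaling gave 4 member probes in OCI-Ly7 at 8 h (4637 of all), 4 and 3 between lines at 8 h and 24 h (3252 of all at 24 h), 4 over time in U2932 DMSO (1560 of all) and 0 in OCI-Ly7 DMSO (6 of all). Testing only probes detected on all arrays compared, which leaves fewer probes, gave 6628 of all probes in U2932 at 24 h, 5 member probes in OCI-Ly7 at 8 h, 4 between lines at 8 h, 3819 of all between lines at 24 h, 4 between times in OCI-Ly7, and 11 and 8 between lines in DMSO. A shared spread gave 1 member probe and 320 of all over time in U2932 DMSO and 3175 of all in OCI-Ly7 DMSO. Array weights gave 6146 of all between times in OCI-Ly7, 10588 between lines in DMSO at 24 h and 1647 over time in OCI-Ly7 DMSO. For OCI-Ly7 DMSO over time, the deposited values gave 1 member probe, and offset 50 and no filter gave 0 member probes and 0 of all.

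Leaving out each array in turn, member probes called (all probes in brackets) ranged from 18 to 19 (9542 to 9735) in U2932 at 8 h, 16 to 17 (10545 to 11018) at 24 h, 8 to 11 (6678 to 7523) in OCI-Ly7 at 8 h and 6 to 9 (4501 to 5833) at 24 h. For differences they ranged from 7 to 9 (4221 to 5075) between lines at 8 h, 4 to 7 (6059 to 6827) at 24 h, 14 to 18 (6483 to 7007) between times in U2932 and 6 to 10 (3005 to 4330) in OCI-Ly7. In DMSO they ranged from 17 to 20 (8275 to 9214) and 12 to 17 (5558 to 8154) between lines and from 4 to 8 (1721 to 2819) and 0 to 7 (0 to 2685) over time in U2932 and OCI-Ly7. In the 4 treatment comparisons 18 results lost and 7 gained a call in some such run, and 419 kept theirs. The labels do not say whether replicate numbers pair the samples. With the replicate block 19, 16, 9 and 8 member probes were called in the 4 treatment comparisons (9915, 10881, 7584 and 5960 of all), 2 results losing and 1 gaining a call. Probes near the background, such as BCL2 ILMN_1701120, BAX ILMN_1683300 and BID ILMN_2259495, are limited by signal over background.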
